A study of Homo sapiens with 3 samples.

Results

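The circadian clock genes examined here were PER1, PER2, PER3, CRY1, CRY2, CLOCK, NR1D2, DBP, BHLHE40 and BHLHE41, taken wherever a probe set of the array carried exactly 1 gene symbol and that symbol was one of the 10. Of the 10 genes, 9 were measured this way, by 22 probe sets, out of 19775 genes in all. PER1 had no value, because each of its 4 probe sets carries a microRNA gene, MIR6883, beside PER1 in the platform annotation. RNA came from KYSE140, an established line of human oesophageal squamous cell carcinoma grown in RPMI medium with serum. It was hybridised to Affymetrix arrays after 12 h with cisplatin, a platinum drug that crosslinks DNA (2 arrays, B1 and B2), or from cells left untreated (1 array). The labels state 10 mM, a dose far above those usual in culture, so its unit is doubtful. Separate cultures are not stated for B1 and B2, and the cause of the spread between these arrays was not tested. A single time point cannot show a rhythm.

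In the circadian clock, CLOCK and its partner BMAL1 bind E-box sequences and switch on the PER and CRY genes, whose proteins then return to the nucleus and repress CLOCK and BMAL1. NR1D2 (REV-ERB beta) and the ROR receptors form a second loop that acts on BMAL1, DBP carries the rhythm to genes with D-box sequences, and BHLHE40 and BHLHE41 (DEC1 and DEC2) compete at E-boxes as repressors. Most of these transcripts turn over quickly, and several are known to respond to serum, cyclic AMP, glucocorticoids, low oxygen or DNA damage in cultured cells.

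The RefSeq promoter windows of the GRCh38.p14 annotation, 250 bases before to 50 bases after a transcription start, were available for all 10 genes. The 4 windows shown are those of the E-box repressor pair, whose array values differed most between B1 and B2, and of the 2 measured PER genes, which differed from untreated cells in opposite directions in B2. Capitals mark the E-box CACGTG, its variant CACGTT and the D-box TTATGTAA or TTACGTAA, each searched on both strands.
BHLHE40: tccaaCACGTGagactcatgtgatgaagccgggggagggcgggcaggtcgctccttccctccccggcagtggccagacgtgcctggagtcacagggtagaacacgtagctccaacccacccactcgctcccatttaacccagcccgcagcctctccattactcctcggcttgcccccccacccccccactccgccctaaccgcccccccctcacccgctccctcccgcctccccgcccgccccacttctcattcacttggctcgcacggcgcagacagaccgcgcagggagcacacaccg
BHLHE41: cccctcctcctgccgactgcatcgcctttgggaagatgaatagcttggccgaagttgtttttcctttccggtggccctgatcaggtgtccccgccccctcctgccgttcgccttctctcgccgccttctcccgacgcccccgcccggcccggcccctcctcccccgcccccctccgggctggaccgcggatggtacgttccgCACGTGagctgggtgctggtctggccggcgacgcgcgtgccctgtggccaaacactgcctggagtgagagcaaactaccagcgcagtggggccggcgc
PER2: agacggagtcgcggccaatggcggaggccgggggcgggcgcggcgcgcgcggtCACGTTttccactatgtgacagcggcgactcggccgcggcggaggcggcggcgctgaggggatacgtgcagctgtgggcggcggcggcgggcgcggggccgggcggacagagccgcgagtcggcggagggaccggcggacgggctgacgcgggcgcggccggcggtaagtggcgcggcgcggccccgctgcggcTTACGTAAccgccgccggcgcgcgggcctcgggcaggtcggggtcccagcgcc
PER3: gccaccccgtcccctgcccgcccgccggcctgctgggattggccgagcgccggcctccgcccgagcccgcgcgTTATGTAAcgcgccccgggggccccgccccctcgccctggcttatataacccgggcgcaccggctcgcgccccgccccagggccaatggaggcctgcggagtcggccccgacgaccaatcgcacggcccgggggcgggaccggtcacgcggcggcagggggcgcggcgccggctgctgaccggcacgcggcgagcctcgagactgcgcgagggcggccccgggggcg
These windows lie at chr3:4979187-4979486 on the plus strand (BHLHE40), chr12:26124988-26125287 on the minus strand (BHLHE41), chr2:238288561-238288860 on the minus strand (PER2) and chr1:7784041-7784340 on the plus strand (PER3), each written in the direction of transcription. The PER2 window belongs to a start inside the annotated span of the gene. The E-box begins 245 bases before the start in BHLHE40 and 48 bases before it in BHLHE41. PER2 holds the variant 197 bases and a D-box 3 bases before its start, and PER3 holds a D-box 177 bases before its start. Over all 10 genes the E-box was found in 3 windows (PER1, BHLHE40 and BHLHE41), against 7.43% of 27305 promoter windows of the same length. The variant was found in 2 (PER2 and CRY1), against 5.27%, and the D-box in 2, against 1.05%. The core letters AGGTCA bound by ROR and REV-ERB receptors were found in 2 (PER1 and CRY2), against 13.9%, and the cyclic AMP element TGACGTCA in 0, against 1.98%. The CLOCK, NR1D2 and DBP windows held none of these letters.

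CLOCK was lower and DBP higher in both cisplatin arrays, the DEC genes BHLHE40 and BHLHE41 went in opposite directions in B1 and B2, and on the mean of both arrays CLOCK and DBP lay farthest from the untreated level. DBP was below the array median in untreated cells at both of its probe sets, too dim for a reliable fold. None of the 9 genes was 2-fold or more higher, or 2-fold or more lower, in B1 and B2 alike, where 0.142% of all genes were higher and 0.678% lower. None did so at 1.5-fold, against 0.956% higher and 2.65% lower over all genes. At any size, 3 were higher in both arrays (39.2% of all genes) and 4 lower in both (27.4%), and in 2 the arrays lay on opposite sides of the untreated value (33% of all genes). Of the 22 probe sets, 6 were higher in both arrays (38% of all probe sets with 1 symbol), 7 lower in both (28.9%) and 9 neither. In the single arrays, 1 of the 9 genes (BHLHE40) differed by at least 1.5-fold either way in B1, against 6.99% of all genes, and 4 (CLOCK, DBP, BHLHE40 and BHLHE41) in B2, against 19.2%. The median log2 difference from untreated over the 9 genes was -0.06 in B1 and -0.21 in B2, against 0.03 and 0.05 over all genes. In limma's moderated test, with Benjamini-Hochberg adjustment over 19775 genes, 0 clock genes and 0% of all genes passed an adjusted p of 0.05. At an unadjusted p under 0.05 the counts were 0 clock genes and 565 genes, or 2.86%. That fit has 1 residual degree of freedom and assumes that the lone untreated array varies like the cisplatin pair, which limits what a count of 0 can show.

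B2 stood apart from the other arrays. Over genes, log2 differences had an SD of 0.56 for B2 against B1 and of 0.60 for B2 against untreated. For B1 against untreated the SD was 0.33. Some genes were near the untreated value in B1 and far from it in B2. Examples are APOBEC3B (log2 differences 0.13 and -5.95) and KRT14 (-0.01 and 3.10). All 11 measured squamous epithelial markers were above the array median of 34.7 in untreated cells, and their summed intensity was 13318 in B1 and 23796 in B2, against 16932 in untreated cells. Of these markers, 7 lay on opposite sides of the untreated value in B1 and B2, and SOX2 alone was at 2416 and 5308, against 5656. TP63, KRT6A and KRT17 had no probe set with 1 symbol. Summed intensities were 394 and 487, against 363, for 10 fibroblast markers, 222 and 205, against 195, for 8 leukocyte markers, and 228 and 215, against 188, for 10 endothelial markers. In these lists 5 of 10, 6 of 8 and 8 of 10 genes lay below the array median on every array. In bulk RNA, fewer cells of a kind and less RNA per cell cannot be told apart. The part of these shifts in the values below was not tested. The 7 reference genes measured, among them ACTB, GAPDH and TBP, had log2 differences from -0.10 to 0.23 in B1 and from -0.19 to 0.43 in B2. Beyond that range in both arrays lay DBP on the high side (6.02% of all genes) and CLOCK, CRY1 and NR1D2 on the low side (14.2%).

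**Figure D1:**
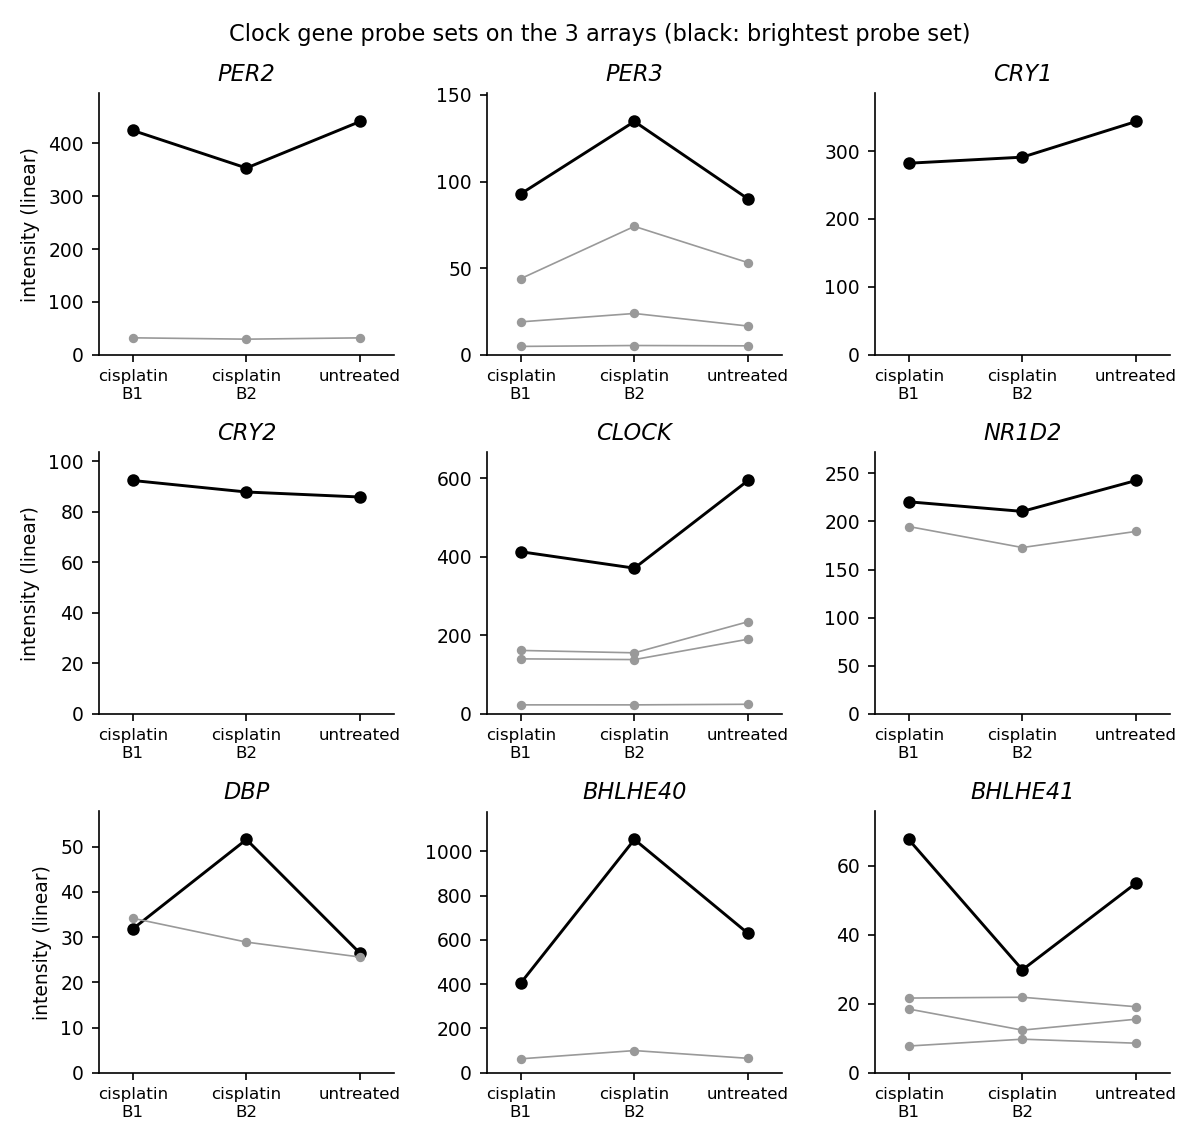
Intensity (linear axis from 0, a different range in each panel) of every clock gene probe set in cisplatin B1, cisplatin B2 and the untreated array; each line is 1 probe set and the black line is the gene's brightest. All 4 CLOCK lines are lower in both cisplatin arrays, while the black lines of BHLHE40 and BHLHE41 lie on opposite sides of the untreated value in B1 and B2.

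CLOCK, the bHLH-PAS activator of the loop, had the largest difference shared by both arrays. The gene lies at chr4:55427903-55546909 (GRCh38.p14, as for the genes below) and spans 119 kb. Its brightest probe set had an intensity of 413 in B1 and 371 in B2, against 595 in untreated cells. Both cisplatin arrays were below the untreated array, and they differed little from each other. The log2 difference was -0.60 ± 0.11 (SD of the cisplatin pair, n = 2), or 1.52-fold lower, with a limma SE of 0.20 and an adjusted p of 0.969 (unadjusted p = 0.056). The other probe sets read 162 and 155 against 235, 140 and 138 against 190, and 22.7 in each against 24.2. All 4 were therefore lower in both arrays, the dimmest by little, and their mean log2 difference was -0.40 in B1 and -0.46 in B2. Over all genes, 6.25% had a lower mean difference than CLOCK.

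The nearest genes to CLOCK by Euclidean distance over the B1 and B2 differences, among 10209 genes whose log2 value averaged at least 6 over the arrays, were WNT5B, TBC1D2B and ASCC3 (distances 0.018, 0.019 and 0.022). With 2 differences that share the untreated array, such neighbours are a description only.

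The period genes, whose products hold back CLOCK and BMAL1, did not move together. PER2, at chr2:238244044-238300065, had intensities of 424 in B1 and 353 in B2, against 441 in untreated cells, so B1 was near the untreated value and B2 lower. Its log2 differences were -0.06 and -0.32 (mean -0.19 ± 0.19, SD, n = 2; limma adjusted p = 0.969), and its second probe set was dim and nearly level, at 32.1 and 29.5 against 32.0. PER3, at chr1:7784291-7845177, had intensities of 92.9 in B1 and 134.6 in B2, against 89.9 in untreated cells. Here B1 was again near the untreated value and B2 was higher, with log2 differences of 0.05 and 0.58 (mean 0.31 ± 0.38, SD, n = 2; limma adjusted p = 0.969). The other PER3 probe sets were at 43.9 and 74.1 against 53.2, at 19.0 and 23.8 against 16.6, and at 4.82 and 5.34 against 5.15. All 4 PER3 probe sets were thus higher in B2, and 2 of them in B1 as well. The probe sets at 16.6 and 5.15 in untreated cells were below the array median of 34.7, and the dimmest was nearly level.

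The cryptochromes, partners of the PER proteins in the repressor complex, were measured by 1 probe set each. CRY1, at chr12:106991364-107093549, had intensities of 282 in B1 and 291 in B2, against 344 in untreated cells. Both arrays were lower to a like extent, with a log2 difference of -0.26 ± 0.03 (SD, n = 2; limma SE 0.19, adjusted p = 0.969). CRY2, at chr11:45847118-45883244, had 92.3 in B1 and 87.7 in B2, against 85.8 in untreated cells, a difference of 0.07 ± 0.05 (SD, n = 2; limma adjusted p = 0.975) that lies within the range of the reference genes.

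NR1D2, the heme-binding nuclear receptor REV-ERB beta, lies at chr3:23945286-23980617. It had intensities of 220 in B1 and 210.5 in B2, against 243 in untreated cells, a log2 difference of -0.17 ± 0.05 (SD, n = 2; limma adjusted p = 0.969). Both arrays were slightly lower at this probe set, but the second one read 195 and 173, against 190, so that B1 was not lower there.

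DBP, a PAR bZIP activator and direct E-box target of CLOCK, had the highest mean difference from untreated of the clock genes at its brighter probe set, most of it from B2. The gene lies at chr19:48630030-48637379. Intensities were 31.8 in B1 and 51.6 in B2, against 26.4 in untreated cells, and at the second probe set 34.2 and 28.9, against 25.6. Both probe sets were higher in both cisplatin arrays, but one had its higher value in B2 and the other in B1, and the untreated values were below the array median of 34.7, and so low that detection itself is uncertain. The log2 differences of the brighter probe set were 0.27 and 0.97 (mean 0.62 ± 0.49, SD, n = 2; limma SE 0.39, adjusted p = 0.969).

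BHLHE40 and BHLHE41, the paralogous E-box repressors, gave mirror-image values at their brightest probe sets. BHLHE40 (chr3:4979437-4985323) had intensities of 405 in B1 and 1053 in B2, against 629 in untreated cells. B1 lay below the untreated value and B2 above it, with log2 differences of -0.64 and 0.74, and the mean of 0.05 ± 0.98 (SD, n = 2; limma adjusted p = 0.996) describes neither array. B2 was 2.60-fold above B1, and 3.12% of all genes had a larger difference between the 2 cisplatin arrays. The second BHLHE40 probe set, at 62.9 and 100.2 against 65.2, was likewise higher in B2, but in B1 it was close to the untreated value.

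BHLHE41 (chr12:26120030-26125037) had intensities of 67.5 in B1 and 29.8 in B2, against 54.9 in untreated cells. It was the reverse of BHLHE40, higher in B1 and lower in B2, with log2 differences of 0.30 and -0.88 (mean -0.29 ± 0.83, SD, n = 2; limma adjusted p = 0.970). B1 was 2.27-fold above B2, and 4.45% of all genes had a larger difference between these arrays. Its B2 value at this brightest probe set was below the B2 array median of 35.5. The other 3 probe sets were below the array median in untreated cells. One of them had the same order (18.5 and 12.4, against 15.5), and the rest did not (7.75 and 9.72, against 8.56; 21.6 and 21.9, against 19.1).

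**Figure D2:**
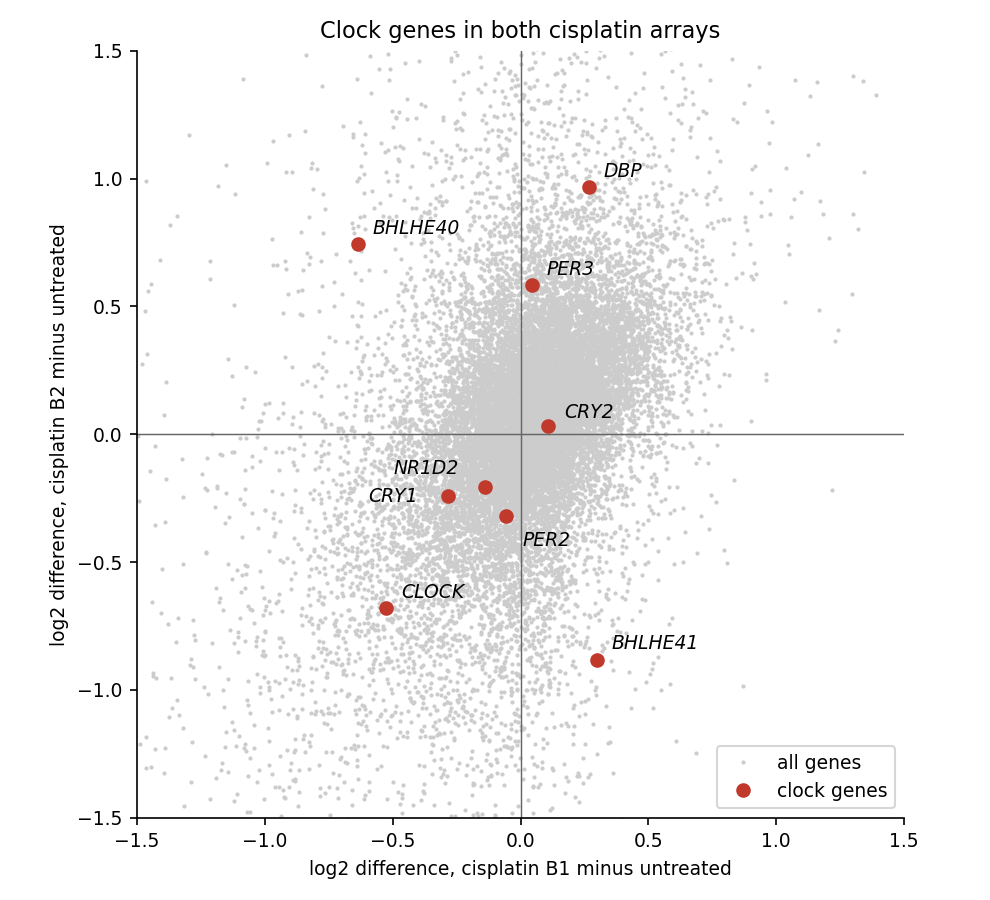
Log2 difference from the untreated array in cisplatin B2 (vertical axis) against cisplatin B1 (horizontal axis), for the 9 clock genes in red and all genes in grey (620 genes lie outside the plotted range). Both axes share the untreated array; CLOCK lies low and DBP high in both, and BHLHE40 and BHLHE41 fall in opposite corners.

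The other factors of the loops were read from a list beyond the 10 genes. Of 8 measured here, 4 were higher and 2 lower in both arrays, near the 39.2% and 27.4% of all genes, and 0 were so at 1.5-fold in either direction (0.956% and 2.65%). BMAL1, the partner of CLOCK, had intensities of 71.2 in B1 and 123.5 in B2, against 121.0 in untreated cells (log2 differences -0.77 and 0.03). These are the values of its brightest probe set. Of the 2 BMAL1 probe sets, 1 was lower in both arrays, and the mean difference over the 2 was -0.52. The BMAL1 paralogue BMAL2 had 403 and 389, against 508, and was lower at all 3 probe sets (-0.33 and -0.39 at the brightest). NPAS2, which can stand in for CLOCK, had 57.3 and 59.9, against 41.9, with log2 differences of 0.45 and 0.51. It was higher in both arrays at 3 of 5 probe sets and lower in both at 1, and the mean difference over all 5 was 0.17.

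CIART, a repressor of CLOCK and BMAL1, was at 68.7 and 124.3, against 70.2 (-0.03 and 0.83). The receptor genes RORA (0.26 and 0.41) and RORB (0.21 in each) were below the array median, and over its 8 probe sets RORA averaged -0.07. TIMELESS (-0.17 and -0.04) and TIPIN (0.03 and 0.04), which act together at replication forks, were close to the untreated level. NR1D1 shares its probe sets with THRA in the annotation and was not used.

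Of the other bZIP genes that act at D-boxes, NFIL3, a repressor there, had intensities of 353 in B1 and 618 in B2, against 287 in untreated cells. Both arrays were higher, by 0.30 and 1.10 on the log2 scale (limma adjusted p = 0.969). The PAR bZIP genes TEF (-0.03 and 0.46) and HLF (0.30 and 0.08, dim) were less far from the untreated level.

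**Figure D3:**
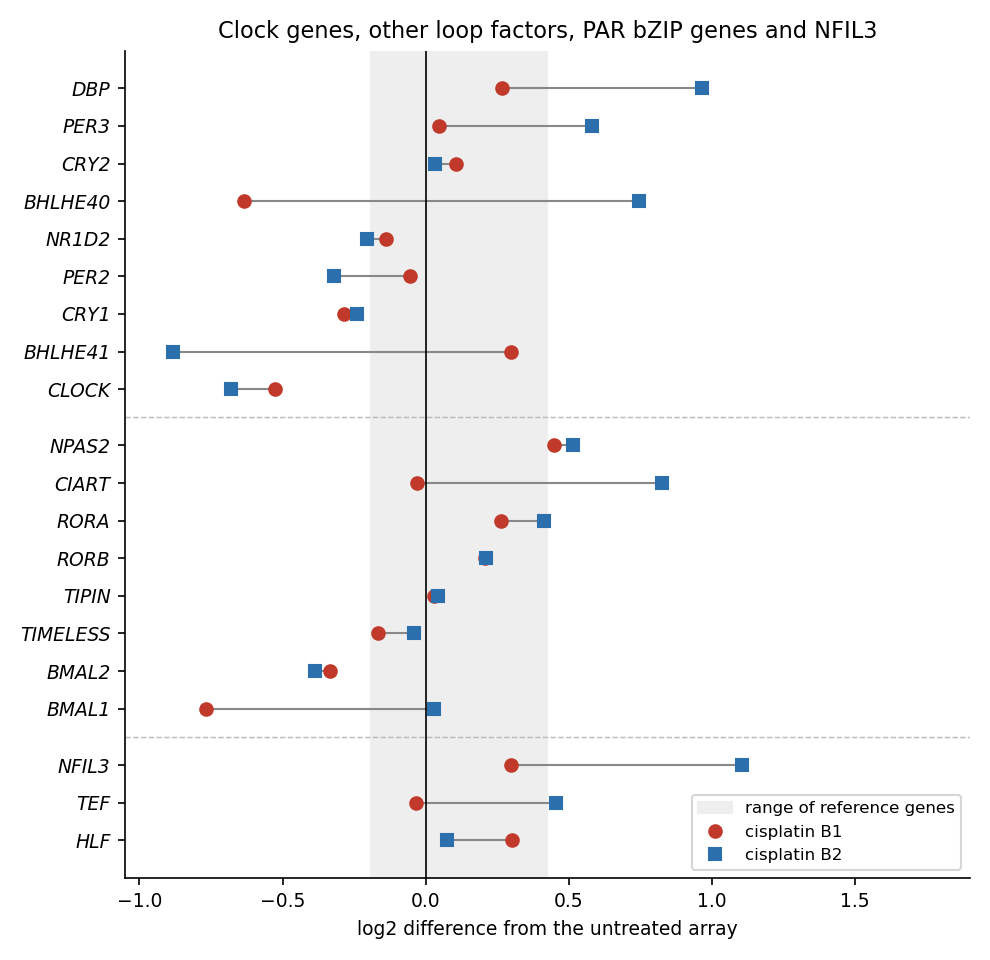
Log2 difference from the untreated array in cisplatin B1 (circles) and B2 (squares) for the 9 clock genes, 8 other loop factors, and the PAR bZIP genes with NFIL3, in 3 blocks from top to bottom; the grey band spans the 7 reference genes over both arrays. CLOCK, CRY1 and BMAL2 lie left of the band in both arrays, and the squares of DBP, PER3, BHLHE40, NPAS2, CIART, NFIL3 and TEF lie right of it.

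Kinases, phosphatases and ubiquitin factors that set the stability of clock proteins included the largest difference shared by both arrays among the clock-related lists, that of GSK3B. Of 21 measured, 5 were higher and 8 lower in both arrays (39.2% and 27.4% of all genes), and 3 were lower by at least 1.5-fold in both, against 2.65% of all genes. GSK3B, a kinase that phosphorylates PER, CRY and REV-ERB proteins, had intensities of 244 in B1 and 327 in B2, against 696 in untreated cells (log2 -1.51 and -1.09). FBXW11, a ubiquitin ligase adaptor for PER proteins, had 376 and 260, against 686 (-0.87 and -1.40). BTRC, its paralogue, had 45.6 and 56.5, against 91.1 (-1.00 and -0.69). The count of probe sets lower in both arrays was 3 of 5 for GSK3B, 2 of 2 for FBXW11 and 4 of 5 for BTRC, and the mean over all probe sets was -0.51, -0.92 and -0.31. The casein kinase genes CSNK1D (0.12 and 0.33) and CSNK1E (-0.11 and -0.17), whose products phosphorylate PER proteins and which are named outside the rule for their role, stayed near the untreated level.

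Among 15 co-regulators of the PER complex and of CLOCK, 3 were higher in both arrays and 7 lower, against 39.2% and 27.4% of all genes, with 2 lower by 1.5-fold or more, against 2.65%. The last were the corepressor scaffold gene SIN3A (-0.74 and -0.89, lower at 4 of 4 probe sets) and the acetyltransferase gene CREBBP (-0.90 and -0.60, lower at 2 of 4). SFPQ, an RNA-binding partner of PER, was at -0.33 and -0.41, although its 5 probe sets averaged 0.09. Of 14 clock-controlled outputs, 6 were higher and 3 lower in both arrays, near the same shares of all genes, and none by 1.5-fold. Among these outputs NOCT, CLDN5 and PPARA had the largest shared differences. The deadenylase-like gene NOCT was at 0.20 and 0.61. The dim claudin gene CLDN5, which is also on the endothelial list, was at 0.50 and 0.69. The nuclear receptor gene PPARA was at -0.36 and -0.12. PPARA was lower in both arrays at 4 of 9 probe sets and higher in both at 2, and all 9 averaged -0.06. Of 12 genes of acute cyclic AMP and glucocorticoid signalling, the inputs best known for PER1, 6 were higher and 2 lower in both arrays, which is also near the 39.2% and 27.4% of all genes. NR4A2, an orphan receptor, had 167 and 133, against 73.4 (1.18 and 0.86, higher at 3 of 3 probe sets), CREM differed by 0.50 and 0.52, and NR4A1 by 0.47 and 0.61. No gene of these 4 lists passed the limma test over all genes.

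Genomic span, the annotated length of a gene with its introns, varied widely among the clock genes, with 119 kb for CLOCK and 102 kb for CRY1 at the upper end and 7.35 kb for DBP, 5.89 kb for BHLHE40 and 5.01 kb for BHLHE41 at the lower end. All genes were put into 10 bands of equal number by span. In the band of CLOCK and CRY1 (84.7 to 153 kb) the median log2 difference over all genes was -0.16 in B1 and -0.08 in B2. CLOCK differed from those medians by -0.37 and -0.60, and CRY1 differed from them by -0.13 and -0.16. In the band of DBP (6.70 to 11.2 kb) the medians were 0.09 and 0.10, and DBP differed from them by 0.18 and 0.86. GSK3B, BTRC and FBXW11 spanned 273, 203 and 145 kb. The part of span in these differences was not tested.

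**Figure D4:**
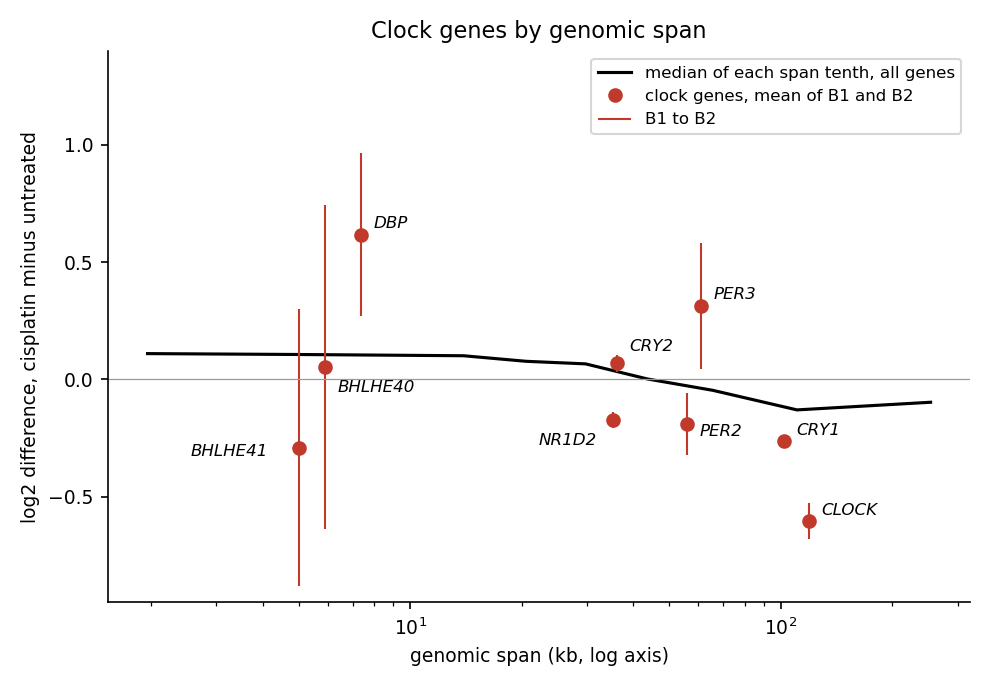
Mean log2 difference of the 2 cisplatin arrays from the untreated array (vertical axis) against genomic span in kb (log axis) for the 9 clock genes, with red bars running between the B1 and B2 values; the black line joins the medians of all genes in 10 bands of span. CLOCK, CRY1 and NR1D2 lie below the line and DBP and PER3 above it over the whole of their bars, while the bars of BHLHE40 and BHLHE41 cross it.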

How the data were processed

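RNA of KYSE140 cells was measured on 3 Affymetrix arrays, 2 from cisplatin-treated and 1 from untreated cells. The deposited values are intensities, 1 for each of 54675 probe sets, made by the authors with RMA, per the submitters' processing notes. RMA removes background, scales arrays to each other and merges the probes of a set. Neither its version nor a chip definition is given in the sources used here. The intensities ran from 3.03 to 19645, so they are on a linear scale and were put on the log2 scale with no pseudocount. No detection calls were used, and having only 3 arrays limits precision.

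After removal of 62 control probe sets, 41091 carried 1 gene symbol, 1801 several and 11721 none in the platform annotation. Symbols were updated by gene number to GRCh38.p14, which held 19734 of 19775 genes. The brightest probe set (highest mean log2 value) stood for a gene. The limma package (3.58.1, R 4.3.3) was run over all genes with lmFit and eBayes (2.01 prior degrees of freedom) and tested on simulated data. Two-sided p-values were adjusted by Benjamini-Hochberg. All 9 measured genes are named, with every measured other loop factor and PAR bZIP gene or NFIL3. For each of 4 further lists up to 3 genes with the largest difference shared by both arrays are named. The genes and lists were chosen with earlier results of these data known. Alternatives covered probe set choice, scaling, level filter, variance prior, size threshold, pseudocount, span and each cisplatin array alone. No column of the table was left unused.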

Additional observations from a re-analysis of the deposited data

How the results depend on the processing

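The count of 0 genes past the limma threshold was 0 in each of 7 other settings (probe set mean, median centring, quantile normalization, a mean log2 value of at least 6, every probe set tested, a variance trend and a robust prior), with 507 to 639 genes at an unadjusted p under 0.05 among 19775, 264 among 10209 brighter genes and 1414 among 41091 probe sets. The count of 0 clock genes past 2-fold in both arrays was 0 in every alternative except that of any size in the same direction, which gave 7, and ranged from 0 to 0 with 1 cisplatin array left out. With 1 cisplatin array left out, BHLHE40 ranged from -0.64 to 0.74 and BHLHE41 from -0.88 to 0.30, so both changed sign with the array. BHLHE40 was at -0.052 after the span band median was subtracted, having been near 0 before. Scalings moved the median of all genes by less than 0.1. Under quantile normalization PER2 was no longer lower in B1, and with the probe set mean PER3 was no longer higher in B1. The log2 difference of CRY1 moved to -0.16 with quantile normalization and to -0.13 with the span band median subtracted. That of NR1D2 moved to -0.08 with quantile normalization and to -0.11 with the probe set mean, and to -0.24 with the span band median subtracted. For PER2 it was -0.10 with quantile normalization and -0.12 with the probe set mean. With the probe set mean BHLHE41 moved to -0.03 and PER3 to 0.19. CLOCK stayed lower and DBP higher in both arrays under all 4 of probe set mean, median centring, quantile normalization and a pseudocount of 16. The mean difference of CLOCK moved from -0.60 to -0.43 with the probe set mean and to -0.47 with the span band median subtracted. No paired analysis was possible because the untreated group has 1 array. DBP and 3 of 4 BHLHE41 probe sets were too dim in untreated cells for a reliable fold.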
